A study of Mus musculus with 8 samples.

Results

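Genes of the interferon response and of MHC class I antigen presentation were examined in the hippocampus of 3xTg-AD mice fed rosmarinic acid (RA), a plant polyphenol. The list held 39 genes, and every probe set whose gene symbol was exactly one of them was taken, while probe sets that name several genes were left out. Of the 39 genes, 36 were named alone by a probe set, with 63 probe sets of the 45037 on the array. A probe set was treated as unmeasured where its SD over the 8 arrays was at most 0.01, because the summary method used by the authors draws a probe set without shared signal to a constant. This left 32 measured probe sets for 23 genes, among 3758 measured probe sets for 2496 genes on the whole array. For each gene the measured probe set with the highest mean stood for the gene.

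The mice were male 3xTg-AD animals, which carry mutant forms of human amyloid precursor protein and tau under a neuronal promoter and a mutant presenilin 1. Both groups carried all of these alleles and were 10 months old, so that no group without the alleles enters the comparison. The control group received the AIN-93G diet and the RA group the same diet with 0.5% RA for 8 months. Each group had 4 arrays, named here control 1 to control 4 and RA 1 to RA 4. The methods of the study name 4 mice of average weight per group and also pooled total RNA, so whether an array is 1 mouse is not settled, and p-values measure only the spread between these arrays. The 4 arrays per group limit the precision of every value.

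Interferons are cytokines that cells release on sensing foreign or misplaced nucleic acid, and their receptors activate transcription factors that bind a promoter element called the interferon-stimulated response element. The induced genes encode antiviral effectors, GTPases that attack intracellular pathogens, chemokines, and the proteins that load peptides onto MHC class I molecules for display to T cells. In the brain, microglia, endothelial cells and other glia use this programme in infection, in ageing and around amyloid deposits.

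The core of that response element is the motif GAAANNGAAA, where N is any base. It was searched on both strands of the RefSeq promoter windows of the assembly GRCm38.p6, which span 250 bases before to 50 bases after each start. Of the 32 members with a promoter entry, 17 held the motif, against 3.44% of all 32851 promoters and 3.99% of all genes with an entry. Overlapping matches were counted apart, and a match is a description of the letters and not a site of binding.

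The stretches upstream of 5 members described below are printed 5′ to 3′ on the strand of the gene, with the response element core in capitals. Capitals that begin with TTTC mark the core on the opposite strand. They are shown because Ifit1, Ifit3, Gbp3 and Cxcl10 varied together from array to array and Ifitm2 did not vary with them.
Ifit1 (chr19:34640745-34640853, plus strand): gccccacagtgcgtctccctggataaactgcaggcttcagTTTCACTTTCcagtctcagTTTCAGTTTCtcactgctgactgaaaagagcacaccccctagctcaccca
Ifit3 (chr19:34583333-34583456, plus strand): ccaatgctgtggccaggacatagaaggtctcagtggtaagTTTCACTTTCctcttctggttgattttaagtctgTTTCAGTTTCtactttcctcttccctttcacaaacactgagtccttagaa
Gbp3 (chr3:142559959-142560043, plus strand): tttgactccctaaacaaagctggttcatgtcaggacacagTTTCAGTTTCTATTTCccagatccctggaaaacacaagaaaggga
Cxcl10 (chr5:92349053-92349139, minus strand): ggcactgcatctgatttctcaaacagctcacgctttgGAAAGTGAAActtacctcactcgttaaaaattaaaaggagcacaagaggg
Ifitm2 (chr7:140955962-140956047, minus strand): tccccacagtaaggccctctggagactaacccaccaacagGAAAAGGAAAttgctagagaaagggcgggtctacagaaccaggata

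Ifit1 and Ifit3 each held a pair of cores with the same letters on both promoters, and Gbp3 held 2 cores that overlap. Of the 19 measured members with an entry, 12 held a match to GAAANNGAAA. The windows of Irf9, Ifit2, Oasl2, Xaf1, Ifitm1, H2-K1 and H2-D1 held none, and the 2 matches of Ifitm3 lay after the start. Several of the genes without a match, such as Ifit2 and Xaf1, also varied with the other members, as described below. Usp18, Rtp4, Ifi27, Iigp1, Oas2, Mx1 and Mx2 had no entry.

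The data showed one pattern shared by most measured members, in which the level varied between arrays of the same diet group more than between the groups. Control 2 was the highest of the 8 arrays for 17 of the 23 measured members, and 10.7% of all measured genes had their highest value there. Control 2, RA 1 and RA 4 were the 3 highest arrays for 18 of the 23, against 3.61% of all measured genes. Control 3 or RA 3 was the lowest array for 18 of the 23, against 40.2% of all measured genes. Each of these was the lowest for 9 members, against 34.9% of all measured genes for control 3 and 5.33% for RA 3. The arrays named in these counts were picked after the values were seen. Because the members varied together, the 23 are not separate observations, and the shares are given as a description. The mean over the measured members, each centred on its own mean, was 0.53 in control 2, 0.30 in RA 1 and 0.24 in RA 4 on the log2 scale. It was -0.34 in control 3, -0.30 in RA 3, -0.19 in control 1, -0.16 in control 4 and -0.07 in RA 2. Both diet groups therefore held arrays with a high and arrays with a low level of these transcripts.

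**Figure D1:**
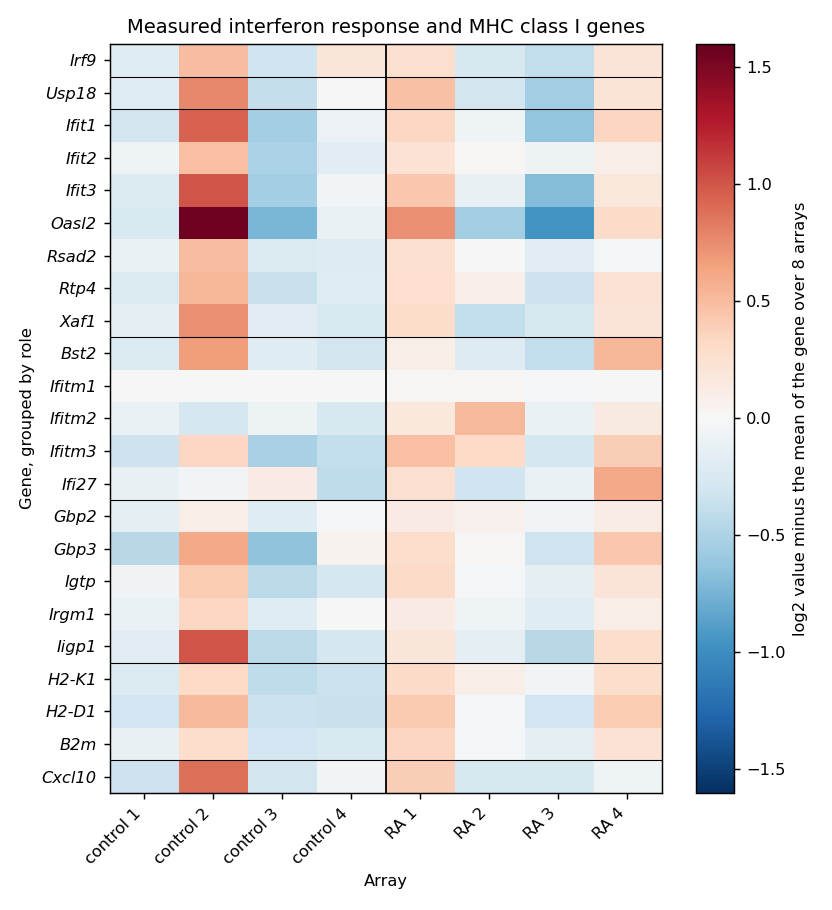
Heat map of the 23 measured members (vertical axis, grouped by role) in the 8 arrays (horizontal axis, control to the left of the line and RA to the right). Colour is the log2 value minus the mean of the gene over the 8 arrays, and control 2 is the highest array for 17 of the 23 genes.

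Among transcription factors and the sensor of the list, 1 of 5 genes was measured. Irf9, the DNA-binding part of the complex that carries the type I interferon signal, ranged from 5.76 in RA 3 to 6.65 in control 2. Its log2 fold change, RA minus control, was -0.09 ± 0.24 (standard error from limma, n = 4 per group). The RNA sensor Ifih1 and the transcription factors Irf1, Irf7 and Stat2 were unmeasured.

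Usp18, the protease that removes ISG15 from proteins and damps signalling at the interferon receptor, read 5.87, 6.83, 5.68 and 6.05 in control 1 to 4 and 6.53, 5.76, 5.50 and 6.28 in RA 1 to 4. The groups overlapped across nearly their whole range, with control 2 and RA 1 on top and RA 3 at the bottom. Its log2 fold change was -0.09 ± 0.33. Isg15 had no probe set that names it alone.

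The RNA-binding and antiviral effectors had 7 of 11 genes measured, and control 2 was the highest array for each of the 7. Oasl2, an oligoadenylate synthetase-like protein, had the widest spread of all members. It read 5.94, 7.75, 5.46 and 6.09 in control 1 to 4 and 6.91, 5.64, 5.24 and 6.49 in RA 1 to 4. Control 2 stood 1.92 above the mean of the other control arrays on the log2 scale, a ratio of 3.78. The log2 fold change between the diet groups was -0.24 ± 0.60, and an exact permutation test of the 2 means gave p = 0.743 (2-sided).

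Ifit3, which stabilises Ifit1 on viral RNA, read 6.87, 8.10, 6.55 and 7.05 in the control arrays and 7.52, 6.97, 6.39 and 7.28 in the RA arrays. Ifit1, which binds RNA caps that lack the methylation of host RNA, read 6.09, 7.33, 5.84 and 6.29 in the control arrays and 6.72, 6.31, 5.75 and 6.72 in the RA arrays. Both genes had their highest value in control 2 and their lowest in RA 3, and their groups overlapped. The log2 fold changes were -0.10 ± 0.40 for Ifit3 and -0.01 ± 0.38 for Ifit1. Of the other effectors, Ifit2 differed by 0.13 ± 0.21, Rtp4 by 0.12 ± 0.23, Rsad2, which makes a chain-terminating nucleotide, by 0.03 ± 0.19 and the apoptosis-associated Xaf1 by -0.08 ± 0.28. Oas1a, Oas2, Mx1 and Mx2 were unmeasured.

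Membrane and other induced proteins had 5 of 7 genes measured, and they did not share one pattern. Ifitm3, which blocks the entry of viruses at endosomes, read 7.53, 8.20, 7.34 and 7.46 in the control arrays and 8.35, 8.18, 7.58 and 8.26 in the RA arrays. Control 1, control 3 and control 4 lay below every RA array and control 2 lay among the RA arrays. The log2 fold change was 0.46 ± 0.25, a ratio of 1.37, with p = 0.0857 in the exact permutation test and an adjusted p of 0.578 in limma.

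Ifitm2, a relative of Ifitm3 in the same family, read 6.62, 6.45, 6.64 and 6.46 in the control arrays and 6.89, 7.24, 6.61 and 6.86 in the RA arrays. Control 2 was here the lowest array and RA 2 the highest, and RA 3 alone fell within the range of the control arrays. The log2 fold change was 0.36 ± 0.13, a ratio of 1.28, with p = 0.0857 in the exact permutation test and an adjusted p of 0.461 in limma. Ifitm2 was the only measured member with an unadjusted p under 0.05 in limma, which 10.1% of all measured genes had.

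Ifi27, a mitochondrial protein and a common interferon marker in blood, ranged from 8.05 in control 4 to 9.07 in RA 4 and differed by 0.22 ± 0.22. Bst2, which tethers budding viruses to the cell surface, differed by 0.01 ± 0.29, with 7.22 in control 2 and 7.07 in RA 4 and 6.15 to 6.63 elsewhere. Ifitm1 was measured by the threshold but had an SD of 0.017 over the 8 arrays. Ifi35 was unmeasured, and Ifi44 had no probe set that names it alone.

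**Figure D2:**
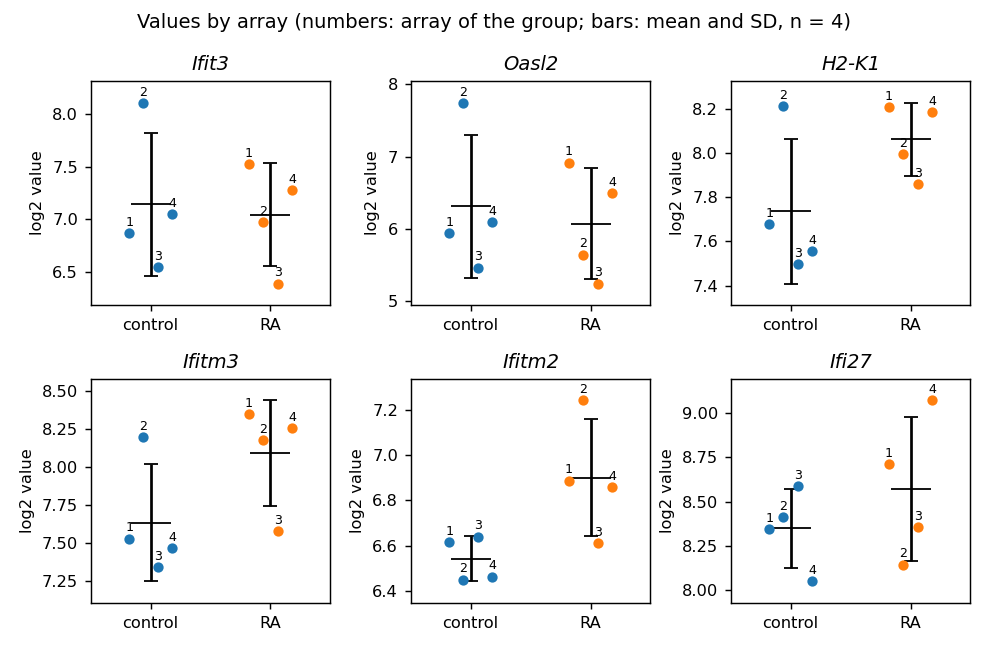
Log2 value in each array (points, numbered by array) for Ifit3, Oasl2, H2-K1, Ifitm3, Ifitm2 and Ifi27, by diet group, with the mean and SD of each group (n = 4). Control 2 is the highest control array for Ifit3, Oasl2, H2-K1 and Ifitm3 and the lowest for Ifitm2, and no gene has groups that are fully apart.

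All 5 interferon-inducible GTPases were measured. Iigp1, which damages the vacuoles of intracellular parasites, read 5.90, 7.10, 5.65 and 5.82 in the control arrays and 6.29, 5.93, 5.64 and 6.37 in the RA arrays. Gbp3, a guanylate-binding protein, read 5.48, 6.52, 5.27 and 5.97 in the control arrays and 6.20, 5.93, 5.59 and 6.35 in the RA arrays. Control 2 was the highest array for both genes and the groups overlapped. The log2 fold changes were -0.06 ± 0.36 for Iigp1 and 0.21 ± 0.31 for Gbp3. Igtp differed by 0.18 ± 0.20, Gbp2 by 0.14 ± 0.08 and Irgm1 by -0.02 ± 0.13.

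Antigen processing and MHC class I had 3 of 8 genes measured, the class I heavy chains H2-K1 and H2-D1 and their light chain B2m. H2-K1 read 7.68, 8.21, 7.50 and 7.56 in the control arrays and 8.21, 7.99, 7.86 and 8.18 in the RA arrays. Control 2 was the highest of the 8 arrays, just above RA 1, and as with Ifitm3 the other control arrays lay below every RA array. These are the values of the measured probe set with the highest mean. On another, RA 1 was the highest at 7.84, and RA 3 at 7.04 lay below control 1 at 7.15 and control 4 at 7.07. On a further one the control arrays except control 2 again lay below every RA array. The log2 fold change was 0.33 ± 0.18, a ratio of 1.25, with p = 0.171 in the exact permutation test and an adjusted p of 0.576 in limma. H2-D1 differed by 0.24 ± 0.27 and B2m by 0.20 ± 0.17, with control 2, RA 1 and RA 4 the 3 highest arrays for both. The measured probe sets of H2-K1 and H2-D1 are of a kind that can also bind transcripts of related class I genes, so these values may be shared among heavy chain genes. The proteasome subunits Psmb8 and Psmb9, the peptide transporter Tap1 and the loading factor Tapbp were unmeasured, and H2-T23 had no probe set that names it alone.

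The only chemokine of the list, Cxcl10, which draws T cells into inflamed tissue, read 5.37, 6.58, 5.40 and 5.65 in the control arrays and 6.09, 5.44, 5.44 and 5.62 in the RA arrays. Control 2 was the highest array and RA 1 the next, and the remaining 6 arrays lay close together. The log2 fold change was -0.10 ± 0.31.

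The rank product, the test named in the methods of the study, called 3 members higher in the RA group, which were Ifitm3, Ifitm2 and H2-K1, with estimated proportions of false positives of 0.010, 0.026 and 0.035. These are 13.0% of the measured members, and the same test called 11.1% of all measured genes and 0.924% of all probe sets higher. It called 1 member lower, Oasl2, with an estimated proportion of 0.0090. This is 4.35% of the measured members, against 6.41% of all measured genes and 0.577% of all probe sets. Over 1 probe set for each named gene, measured or not, it called 1.52% higher and 0.879% lower. Both shares were near the background of measured genes. The groups overlapped for every measured member, while 2.72% of all measured genes lay wholly higher in RA and 3.21% wholly lower.

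These calls have limits. The rank product sets each probe set against all others and not against its own spread, most probe sets on these arrays are nearly constant, and in simulated arrays with the observed spreads and no difference between groups it called about as many probe sets as in the measured arrays. limma, which uses the spread of each probe set, called nothing on the array at an adjusted p under 0.05, and when the rank product was run on the measured probe sets alone it called 0 members in either direction. A call of the rank product is thus not in itself evidence of a difference between the diets.

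The direction of 9 of the 23 measured members turned when control 2 was left out, and leaving out other single arrays turned some signs as well. With all arrays, 14 of 23 measured members had a higher mean in RA, with a median log2 fold change of 0.03, while 74.5% of all measured genes had a higher mean in RA, with a median of 0.07. Without control 2, all 23 had a higher mean in RA, with a median of 0.24, while 75.3% of all measured genes had a higher mean in RA, with a median of 0.07. Oasl2 moved from -0.24 ± 0.60 to 0.24 ± 0.46, and Ifit3 from -0.10 ± 0.40 to 0.22 ± 0.30. The 9 genes whose sign turned without control 2 were Irf9, Usp18, Ifit1, Ifit3, Oasl2, Xaf1, Irgm1, Iigp1 and Cxcl10. Leaving out RA 3 alone also turned signs, among them those of Irf9 (to 0.02), Usp18 (0.08), Ifit1 (0.20), Ifit3 (0.12) and Oasl2 (0.04). With control 2 left out, the rank product called 10 members higher and none lower, against 5.85% of all measured genes higher and 3.65% lower, or 0.491% and 0.302% of all probe sets. Control 2 was the highest array for 17 of the 23, so leaving it out raises RA minus control for those genes by construction. The members also varied together, so these counts are not separate observations of a difference between the diets. In limma without control 2, the adjusted p was 0.579 for Ifitm3, 0.531 for H2-K1 and 0.656 for Ifitm2. Nothing in the labels sets control 2 apart from the other control arrays, and results with all 8 arrays are the ones described.

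**Figure D3:**
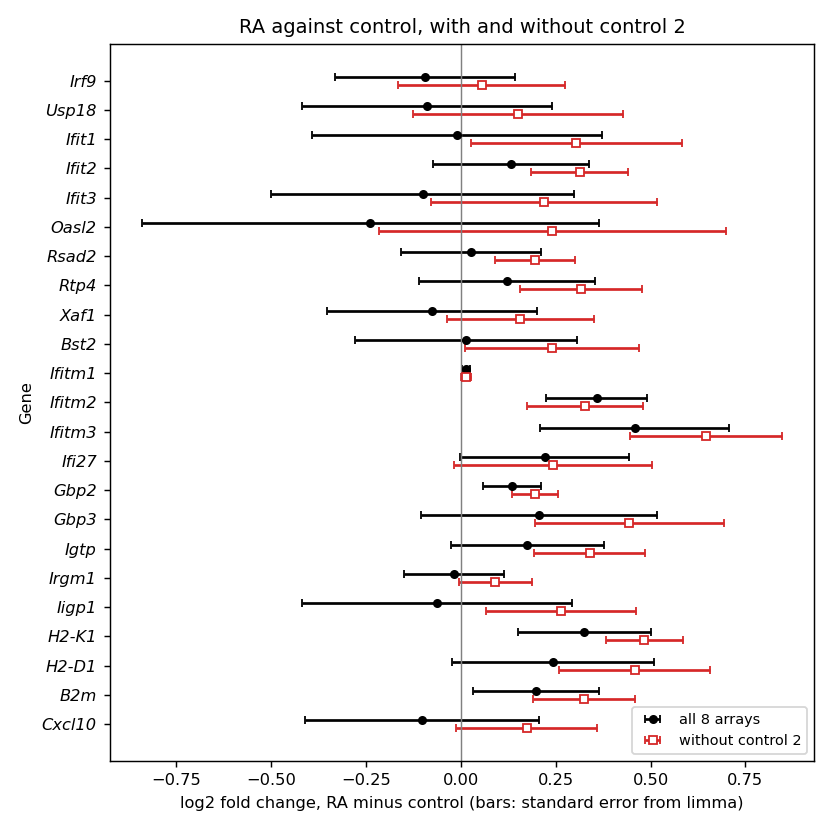
Log2 fold change, RA minus control, with its standard error from limma (horizontal axis), for the 23 measured members (vertical axis), with all 8 arrays (filled circles) and without control 2 (open squares). Without control 2 every point lies above 0, and with all arrays 9 points lie below it.

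The members varied together over the arrays. The median Pearson correlation over the 253 pairs of measured members was 0.83, with 243 pairs above 0 and 140 above 0.8, which is 55.3% of the pairs. Over all pairs of measured genes the median was 0.05, with 9.50% above 0.8. All of these correlations share the same 8 arrays. The median over members was 0.77 without control 2 and 0.90 when each value was centred on the mean of its diet group, so the co-variation was also present within the groups.

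The closest pair was Usp18 and Oasl2, with r = 0.99 and rho = 1.0 over the 8 arrays (exact permutation test, adjusted p = 0.00126 for r over 253 pairs) and r = 0.99 without control 2 and RA 1. Ifit1 and Ifit3 gave r = 0.99 and rho = 0.95, with an adjusted p of 0.00185 in the exact permutation test for r and r = 0.96 without control 2 and RA 3. Among the class I genes, H2-D1 and B2m gave r = 0.97 and rho = 0.95, with an adjusted p of 0.00535 in the exact permutation test for r and r = 0.95 without control 2 and RA 1. Ifitm3 ran closest to H2-K1, with r = 0.96 and rho = 0.93, an adjusted p of 0.00185 in the exact permutation test for r and r = 0.93 without control 3 and RA 1. Of the 253 pairs, 158 had an adjusted exact p under 0.05 for r and 89 for rho. The exact test was not run over all pairs of measured genes, so these counts have no background share beside them. The pairs also share genes and arrays.

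Ifitm1, Ifitm2 and Ifi27 stood apart from the other members. The median correlation with the other members was 0.04 for Ifitm2, 0.30 for Ifi27 and 0.42 for Ifitm1, against 0.72 for Gbp2 to 0.90 for Rtp4 among the rest. The correlation of Ifitm2 with Xaf1 was -0.29 and that with Cxcl10 was -0.28. Its closest relation was with Ifitm1, with r = 0.76 and rho = 0.62 (exact permutation test, adjusted p = 0.0441 for r and 0.157 for rho over 253 pairs). It fell to r = 0.32 without RA 1 and RA 2, so it rests on those arrays, and the SD of Ifitm1 was 0.017. Without Ifitm1, Ifitm2 and Ifi27, a choice made after the values were seen, all 190 pairs were above 0 and the median was 0.87.

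**Figure D4:**
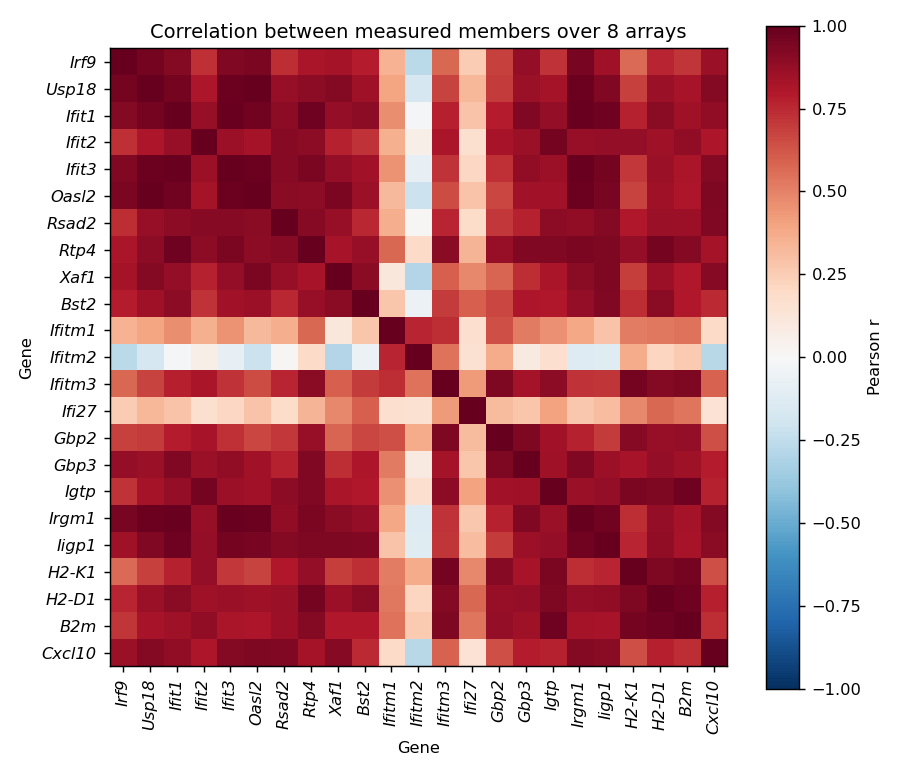
Pearson correlation over the 8 arrays (colour) between each pair of the 23 measured members (both axes). Most pairs are dark red, with a median of 0.83, and the rows of Ifitm1, Ifitm2 and Ifi27 are pale.

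Genes outside the list with a similar course were ranked by their correlation with the mean of the measured members, over 3726 measured probe sets, as a description. The 12 closest named genes were Ifi27l2a, Gbp6, Trim30a, Parp12, Plac8, Herc6, Ccl12, Gbp7, Samd9l, Phf11d, Cd52 and Cxcl13, with r from 0.98 for Ifi27l2a to 0.85 for Cxcl13. Of these, Gbp6, Trim30a, Parp12, Herc6, Gbp7, Samd9l and Phf11d stood on the list of other interferon-induced genes. Without control 2 their correlations ran from 0.96 for Ifi27l2a to 0.74 for Cxcl13. Ifi27l2a, an interferon-induced relative of Ifi27, read 5.80, 7.03, 5.35 and 6.01 in the control arrays and 6.65, 6.21, 5.60 and 6.53 in the RA arrays. Its 3 highest arrays, control 2, RA 1 and RA 4, were those of Ifit1 and not those of Ifi27.

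Other genes of the pathway were mostly unmeasured. Of 19 interferons, receptors and signalling genes, 2 were measured and none was called, with log2 fold changes of 0.08 ± 0.05 for the kinase Jak1 and 0.00 ± 0.01 for the receptor chain Ifngr2. Of 14 genes of nucleic acid sensing, Eif2ak2, the kinase that halts translation on double-stranded RNA, was the 1 measured. It was called higher by the rank product at 0.25 ± 0.16 (estimated proportion 0.046), while limma gave an adjusted p of 0.627. Of 42 other interferon-induced genes, 12 were measured and 1 was called higher, the GTPase Irgm2, at 0.26 ± 0.10 (estimated proportion 0.036), with an adjusted p of 0.464 in limma. Among 18 other antigen processing and class I genes, 3 were measured and none was called, with 0.07 ± 0.10 for the proteasome subunit Psmb10 and 0.02 ± 0.09 for the chaperone Calr. Of 7 MHC class II genes, 2 were measured and none was called, with 0.10 ± 0.09 for the invariant chain Cd74 and 0.01 ± 0.01 for H2-Aa. The limits given for the calls of the members hold for Eif2ak2 and Irgm2 as well.

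Levels of cell type markers were set beside the members, because several cell types of the dissected tissue express these genes. In such bulk samples more cells of a type and more RNA per cell cannot be told apart. Microglia and macrophage markers, with 9 of 15 genes measured, had a mean centred level of -0.25 to 0.07 in the control arrays and -0.05 to 0.21 in the RA arrays. The median correlation of the members with this mean was 0.49, and 0.17 without control 3 and RA 1. Control 2, the array with the highest level of the members, stood at 0.03, inside the range of the other control arrays. Of 14 lymphocyte markers 1 was measured, Ccl5, which had its highest value in control 2 at 0.76 above its mean and its next in RA 1 at 0.43. Of 7 red blood cell markers 1 was measured, Alas2, which was also highest in control 2 at 0.44 and next in RA 1 at 0.23. Oligodendrocyte markers, with 7 of 9 genes measured, were highest of all arrays in control 2 at 0.50, followed by RA 4 at 0.44, control 3 at 0.37 and RA 1 at 0.27, and were lowest in RA 2 at -0.79. The median correlation of the members with this mean was 0.38, and 0.43 without control 1 and RA 2. The part of oligodendrocytes in the level of the members was not tested.

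Astrocyte markers, with 6 of 8 genes measured, ranged from -0.11 to 0.02 in the control arrays and from 0.02 to 0.10 in the RA arrays, and their median correlation with the members was 0.37, and -0.05 without control 1 and control 3. Endothelial and pericyte markers, with 5 of 15 measured, gave a median of 0.21, and 0.38 without control 3 and RA 2. Hippocampal neuron markers, with 11 of 12 genes measured, ranged from -0.32 to 0.23 in the control arrays and from -0.38 to 0.11 in the RA arrays, with a median correlation of 0.26. Of these 11 neuronal genes 10 had a lower mean in RA, with 3 called lower by the rank product, which is 27.3% against 6.41% of all measured genes, 1 called higher and 1 wholly lower, while the lowest adjusted p in limma was 0.341. Over 161 pairs of a member and a marker list, none had an adjusted p under 0.05 in the exact permutation test.

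The members that stood apart were also set beside single lists, and no such pair passed the adjusted threshold. Ifitm1 had its highest r with the microglia, endothelial and astrocyte means, at 0.62, 0.59 and 0.58. Without the 2 arrays left out for each list, r was 0.48, 0.06 and 0.52. Meningeal fibroblast markers, with 11 of 12 genes measured and 9 called higher by the rank product, had a mean of -0.34 to -0.01 in the control arrays and -0.27 to 0.70 in the RA arrays. These 9 are 81.8% of the measured genes of the list, against 11.1% of all measured genes, and the lowest adjusted p in limma was 0.539. Ifitm2 followed this mean with r = 0.79 and rho = 0.55 (exact permutation p = 0.0238 for r, adjusted p = 0.767 over 161 pairs), and with r = 0.11 without control 2 and RA 2, so the relation rests on those arrays. With the endothelial and pericyte mean Ifitm2 gave r = 0.75 and rho = 0.38 (exact permutation p = 0.0564 for r, adjusted p = 0.767). Without control 3 and RA 2 that r was 0.25. Of 14 choroid plexus and ependyma markers 12 were measured and 10 called higher, which is 83.3% against 11.1% of all measured genes, with a lowest adjusted p of 0.766 in limma. Their mean was -0.87 to -0.81 in control 1, control 2, control 4 and RA 2, -0.03 in RA 1, and 0.76, 1.20 and 1.41 in RA 3, RA 4 and control 3. Ifi27 read 8.05 to 8.41 in the first of these sets and 8.35 to 9.07 in the other arrays. Its correlation with the choroid plexus mean was r = 0.70 and rho = 0.76 (exact permutation p = 0.0524 for r, adjusted p = 0.767). Without control 3 and RA 4 that r was 0.44. With the oligodendrocyte mean Ifi27 gave r = 0.69 and rho = 0.76 (exact permutation p = 0.0563 for r, adjusted p = 0.767 over 161 pairs), and r = 0.73 without control 1 and RA 2. Values of this size were not particular to the members that stood apart. With the same mean Xaf1 gave r = 0.70 and Bst2 r = 0.62, and 0.67 and 0.71 without those arrays. The highest r of all 161 pairs was that of Gbp2 with the astrocyte mean, at 0.81, and 0.35 without control 1 and control 3. With the choroid plexus mean as a covariate, an alternative chosen after seeing the data, the log2 fold change of Ifi27 was 0.11 ± 0.19, and that of Ifitm2 was 0.39 ± 0.14. The part of these tissues in the levels of Ifitm2 and Ifi27 was not tested.

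**Figure D5:**
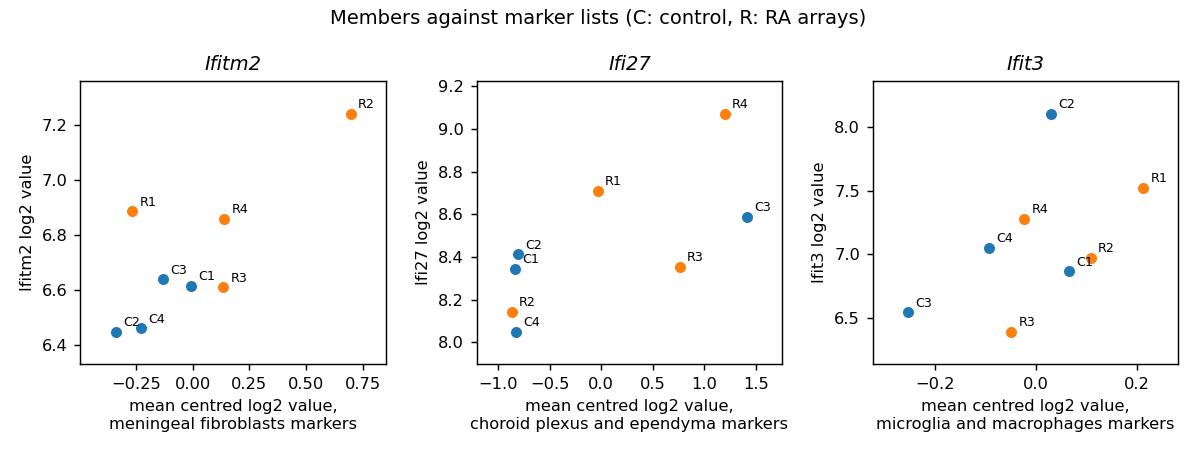
Log2 value of Ifitm2, Ifi27 and Ifit3 in each array (vertical axes) against the mean centred log2 value of the measured markers of meningeal fibroblasts, choroid plexus with ependyma, and microglia with macrophages (horizontal axes), with control arrays in blue and RA arrays in orange. RA 2 is at the top right for Ifitm2, RA 4 is highest for Ifi27, and control 2 is highest for Ifit3 at a marker mean of 0.03.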

How the data were processed

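Hippocampal RNA of 4 control and 4 RA samples was hybridised to Affymetrix mouse genome arrays. FARMS, a factor analysis of the probes, was run by the authors, and its log2 output was deposited and used here as it stands. FARMS holds most probe sets nearly constant, so absence of a difference in an unmeasured probe set says nothing of the transcript. Any scaling between arrays before this step was not given in the sources used here. After 64 control probe sets were left out, symbols of the platform annotation were updated to GRCm38.p6, with 34741 probe sets matched by gene number, 1 by accession and 203 kept as listed, while 932 name several genes and 9160 none.

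The rank product over the differences of every RA and control array used 100 permutations within arrays and a threshold of 0.05. limma 3.58.1 (R 4.3.3), fitted to all probe sets, gave each fold change with its standard error, and p-values were adjusted after Benjamini and Hochberg. Exact permutation tests, 2-sided, ran over the 70 assignments of the arrays. Correlations used exact permutations of the 8 arrays, in Python 3.11.15 with scipy 1.17.1. Both tests were tested on simulated data. Rank product results on simulated arrays without a group difference are described beside the calls.

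The members and lists were chosen with earlier results of these data known. Described with every array were members called by the rank product, members whose groups do not overlap and the 8 with the largest SD. From each pathway list called genes were named, or else the 2 with the largest SD.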

Additional observations from a re-analysis of the deposited data

Results flagged for a closer look

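In 3 of 46 groups of 4 arrays, 1 array lay far from the other 3 by Dixon's test at the 95% level, which chance alone gives in about 1 of 20 groups. In each case it was control 2. Xaf1 read 7.14 in control 2 and 6.16 to 6.24 in the other control arrays. Bst2 read 7.22 there and 6.25 to 6.35 in the others. H2-D1 read 8.49 there and 7.61 to 7.66 in the others.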

How the results depend on the processing

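The count of 3 members called higher was 1 with a filter on low means, 1 by the methods' t-test unadjusted, and 0 with only the measured probe sets, by the rank sum, at a threshold of 0.01, and by limma in plain form, with trend and robust moderation, with array weights and with a replicate block, and by the methods' t-test adjusted. The count of 1 called lower was 0 with only the measured probe sets, by the rank sum, by limma in each of these forms and by the methods' t-test in both. Counting a call of any probe set of a gene gave 4 members higher and 1 lower, with H2-D1 added at an estimated proportion of 0.040. No share over all genes was computed for that count. The share of all probe sets called higher moved as well, from 0.924% to 0.2% with the filter on low means, 0.106% with only the measured probe sets, 0.240% by the rank sum and 0.0666% at a threshold of 0.01, and the share called lower from 0.577% to 0.452% with only the measured probe sets and 0.333% by the rank sum. The unadjusted t-test of the methods called 4.39% of all probe sets higher and 4.71% lower, or 4.61% and 4.13% of measured genes. By the rank product, the share of measured genes called higher moved from 11.1% to 1.17% with the filter on low means. It was 0.0401% with only the measured probe sets, 2.72% by the rank sum and 0.801% at a threshold of 0.01. The share of measured genes called lower moved from 6.41% to 0.401% with only the measured probe sets and 3.41% by the rank sum. Leaving out 1 array gave 0 to 10 members called higher, with 10 without control 2, 6 without control 1 and 0 without RA 1, RA 2 or RA 4, and 0 to 2 called lower, with 2 without RA 1 and 0 without control 2 or RA 3. The share of all probe sets called higher was 2.11% without control 1, 0.491% without control 2 and 0.0422% to 0.0977% without any 1 RA array. The share of all probe sets called lower was 0.302% to 0.697%. Of measured genes, 26.4% were called higher without control 1, 5.85% without control 2 and 0.481% to 1.16% without any 1 RA array. The share of measured genes called lower was 3.65% to 7.73%.

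Leaving out 1 array turned the sign of the log2 fold change for 12 of the 23 measured members. The ranges were -0.52 to 0.24 for Oasl2, -0.30 to 0.22 for Ifit3, -0.26 to 0.15 for Usp18, -0.25 to 0.17 for Cxcl10, -0.22 to 0.26 for Iigp1, -0.22 to 0.0551 for Irf9, -0.19 to 0.30 for Ifit1, -0.19 to 0.16 for Xaf1, -0.16 to 0.24 for Bst2, -0.0839 to 0.0909 for Irgm1, -0.0554 to 0.20 for Rsad2 and -0.0149 to 0.31 for Ifit2. The median over members ran from -0.01 to 0.24. With the choroid plexus mean as a covariate, chosen after seeing the data, the sign also turned for Ifit1 (0.0942), Ifit3 (0.0247), Irgm1 (0.0167) and Iigp1 (0.0110). The cause was not tested. Quantile normalization and subtraction of array medians changed neither count of members called, while quantile normalization moved the calls over all probe sets from 416 to 377 higher and from 260 to 261 lower, and the median pairwise correlation ran from 0.77 to 0.86 over the left-out arrays.

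Arrays with the same number did not deviate together, with correlations of -0.12, -0.33, 0.45 and -0.39, so the numbers were not taken as pairs. The rank product with the replicate block called 1 member higher and 1 lower. It called 2.48% of measured genes higher and 5.45% lower, or 0.206% and 0.471% of all probe sets.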
